A study of Mus musculus with 12 samples.

Results

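The genes of 47 plasma proteins that the liver secretes were followed through AML12 cells given copper and the bile acid taurocholic acid (TCA). The set was written as a list of gene symbols: carriers of metals, heme, vitamins and lipids, apolipoproteins, serpins, clotting factors, complement and acute phase proteins, and binding proteins of insulin-like growth factors. Of these, 39 had a row among the 24824 genes of the deposited table. A gene was taken as expressed in untreated cells when its mean over the libraries of group A reached 1 FPKM (fragments scaled by gene length and by the total of the library, so a level per gene length), and 12 genes met this. Ttr, Ambp, Apoc3, Serpina1a, Serpina1b, Serpind1, Kng1 and Vtn are not analysed here.

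Hepatocytes make most proteins of blood plasma. Each is translated into the endoplasmic reticulum through a signal peptide, carried to the Golgi apparatus and released into the blood. The level of their mRNA is set largely by factors such as HNF4A, FOXA and C/EBP proteins, and cultured liver cells often lose part of the program. In the acute phase response, cytokines raise complement, serum amyloid A, lipocalin and ceruloplasmin and lower albumin. Alpha-fetoprotein is the serum protein of the fetal liver and is low in the adult.

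AML12 is an immortalized line of mouse hepatocytes, and the labels give its genotype as WT. Group A was grown in standard medium. Group B was treated with 300 μM CuCl2 and 40 nM elesclomol, a copper ionophore (Cu/ES), group C with the same Cu/ES and 1000 μM TCA, and group D with 1000 μM TCA alone. All groups were harvested at 24 h with 3 libraries of polyadenylated RNA each, and nothing in the labels says that the 3 came from separate cultures, so p-values measure the spread between libraries, which may be technical. Depth, recovered from the spacing of the values, ran between 29115011 reads in C1 and 39782142 in D1, and was lower in groups B and C than in A and D. FPKM is a share of each library, so fewer cells of a kind and less RNA per cell cannot be told apart, nor can a change of total RNA be read from it.

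The label of hepatocytes was checked against 10 markers, of which 7 had a row (Alb, Apoa1, Hnf4a, Cps1, Tat, G6pc and Pck1), and these were at or near 0 in group A. Ttr, Cyp2e1 and Cyp3a11 are not analysed here. Alb was at 0 in 10 of the 12 libraries, with 5 and 4 reads in B2 and B3. The limit that a count of 0 allows, 3 reads, would be 0.0372 to 0.038 FPKM in group A, counting error only. The nuclear receptor Hnf4a did not exceed 0.0304 FPKM in any library, and the urea cycle enzyme Cps1 did not exceed 0.0637. Of the markers of other liver cells, Krt19 lay between 223 and 313 FPKM in group A, Spp1 between 652 and 689.7 and the collagen gene Col3a1 between 119 and 168, whereas the summed leukocyte markers stayed at or below 0.0767. Not all members of these lists were high: the bile duct markers Krt7, Epcam and Cftr did not exceed 0.113, 0.782 and 0.105 FPKM in group A, and the stellate cell markers Acta2, Col1a2 and Rgs5 did not exceed 0.0181, 0.02 and 0.0444. All levels below describe the cells labelled AML12, in which the measured markers of a hepatocyte are at or near 0 without treatment.

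The promoters of 4 genes are printed because their mRNA levels show the contrasts of this gene set. Afp and Alb are neighbours on the chromosome and share their evolutionary origin, and they had opposite levels in these cells. Lcn2 and C3 showed the largest falls with Cu/ES among the genes of the set in the main test below. Each line holds the 250 bases before the start of the gene, 5′ to 3′ on the strand of the gene, from RefSeq on GRCm38.p6, and capitals mark matches to the searched letters. The windows lie at chr5:90490464-90490713 and chr5:90460620-90460869 on the plus strand, and at chr2:32387740-32387989 and chr17:57228137-57228386 on the minus strand, all upstream of the annotated transcript start.
Afp: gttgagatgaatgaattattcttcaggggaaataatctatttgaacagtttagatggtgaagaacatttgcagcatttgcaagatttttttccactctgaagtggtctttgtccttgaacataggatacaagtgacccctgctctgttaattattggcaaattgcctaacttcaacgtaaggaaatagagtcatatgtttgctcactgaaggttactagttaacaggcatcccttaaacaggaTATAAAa
Alb: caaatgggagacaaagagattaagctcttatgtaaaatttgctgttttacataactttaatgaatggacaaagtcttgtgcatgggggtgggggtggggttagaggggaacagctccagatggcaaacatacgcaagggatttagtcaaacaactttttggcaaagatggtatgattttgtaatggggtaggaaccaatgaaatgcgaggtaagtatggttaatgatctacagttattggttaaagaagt
Lcn2: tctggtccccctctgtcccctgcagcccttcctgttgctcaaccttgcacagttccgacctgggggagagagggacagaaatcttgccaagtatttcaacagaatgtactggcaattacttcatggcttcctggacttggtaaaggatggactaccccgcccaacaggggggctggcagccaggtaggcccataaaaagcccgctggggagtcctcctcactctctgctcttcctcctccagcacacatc
C3: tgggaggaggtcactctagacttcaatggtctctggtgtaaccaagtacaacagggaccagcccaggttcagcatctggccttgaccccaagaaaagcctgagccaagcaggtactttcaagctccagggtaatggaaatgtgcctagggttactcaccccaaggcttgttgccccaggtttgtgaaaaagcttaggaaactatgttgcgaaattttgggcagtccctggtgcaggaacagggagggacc

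Motifs were searched on both strands in the same window of the 35 genes of the set that RefSeq promoters covered (41 windows, since some genes have several). TATAAA, the TATA box, was in 19.5% of these windows and in 12.4% of the 32851 windows of all genes, TGTTTAC (forkhead) in 7.32% and 3.17%, and TGACTCA (AP-1) in 12.2% and 4.46%. TGATGCA, the core of the site shared by ATF4 and C/EBP, was in 2.44% of the windows (Serpinf1 alone) and in 2.68% of all. TGCACNC or TGCGCNC, the core of the metal response element, was in 9.76% of the windows against 21.4% of all, and in none of Afp, Alb, Lcn2 and C3. In the lines above only Afp held a match, to TATAAA, and a match describes letters only.

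The libraries numbered 2 stood apart in several genes of the set, in treated and untreated cells alike. Replicate 2 was the highest of its group in all 4 groups for Cp, Clu, C3, C4b and Hp, whereas 3.80% of all genes tested showed this for replicate 2, 1.21% for replicate 1 and 1.64% for replicate 3. Library A2 held 2.28 times as much C3 as the mean of A1 and A3, and D2 held 2.43 times the mean of D1 and D3. For Cp these ratios were 2.24 in group A and 2.62 in group D. The collagen genes Col1a1 and Col3a1 were likewise highest in replicate 2 of all 4 groups, and the summed markers of stellate cells and fibroblasts were 206 FPKM in A2 against 140.1 and 146 in A1 and A3. Their part in these differences was not tested, and each comparison is given also without the libraries numbered 2.

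**Figure D1:**
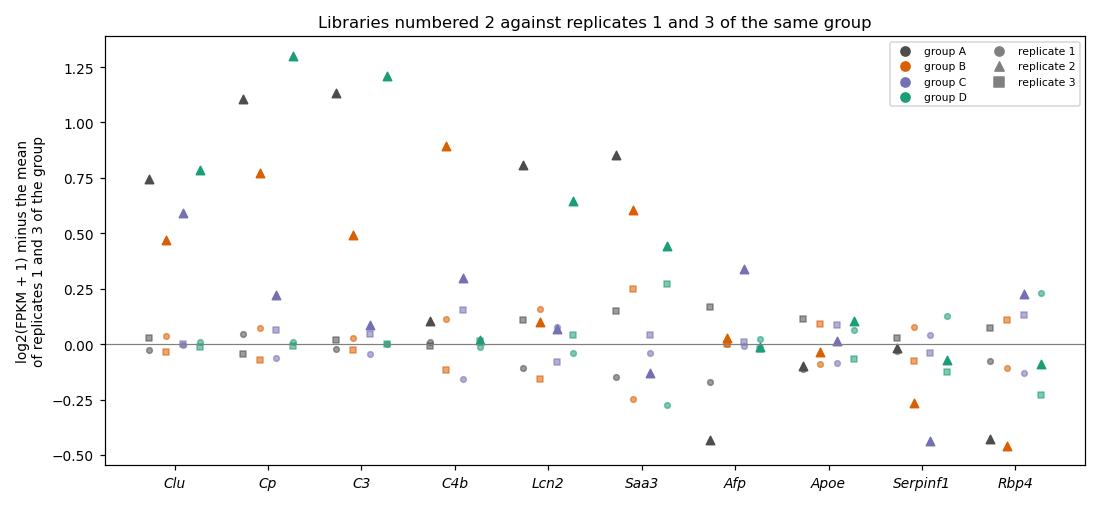
Each library is plotted as log2(FPKM + 1) minus the mean of replicates 1 and 3 of its group (vertical axis, log2 units) for 10 genes (horizontal axis), with colors for groups A to D and triangles for replicate 2. The triangles of Clu, Cp, C3 and C4b lie above 0 in every group, while those of Apoe stay close to 0.

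Untreated AML12 cells expressed 12 of the 39 genes of the plasma protein set at 1 FPKM or more on average. Clu, which encodes the extracellular chaperone clusterin, was the most abundant at 131 ± 42.3 FPKM (SD, n = 3), rank 403 of all genes in group A. Next came the ferroxidase gene Cp at 20.6 ± 10.4, Lcn2, which encodes a siderophore-binding lipocalin, at 19.8 ± 7.29, the complement gene C3 at 18.7 ± 9.69, and Serpinf1, which encodes pigment epithelium-derived factor, at 11.3 ± 0.249. Clu lay above Cp and Serpinf1 below C3 without overlap, whereas Cp, Lcn2 and C3 overlapped with each other. Rbp4, Afp, Igfbp4, Serpina3n, Apoe, Apoa2 and Saa3 lay between 1.03 and 4.16 FPKM on average. Thus 30.8% of the 39 genes reached 1 FPKM in group A, against 43.8% of all genes in the table.

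In every library of group A, 17 genes of the set were at 0. They were the carriers Alb and Ahsg, the apolipoproteins Apob, Apoc1 and Apoh, the fibrinogen chains Fga, Fgb and Fgg, the clotting factors F2, F5, F7, F10 and F12, the plasminogen gene Plg, and Orm1, Igfbp1 and Igfbp2. All but Orm1 stayed below 0.2 FPKM in every library of every group. The blood clotting group was the most complete blank: none of its 9 genes with a row (of 11 listed) reached 1 FPKM in any library, and its summed level in group A was 0. In all, 22 of the 39 genes stayed below 1 FPKM throughout. Numbers of genes at or above 1 FPKM on average were 12 in group A, 13 in B, 12 in C and 10 in D.

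**Figure D2:**
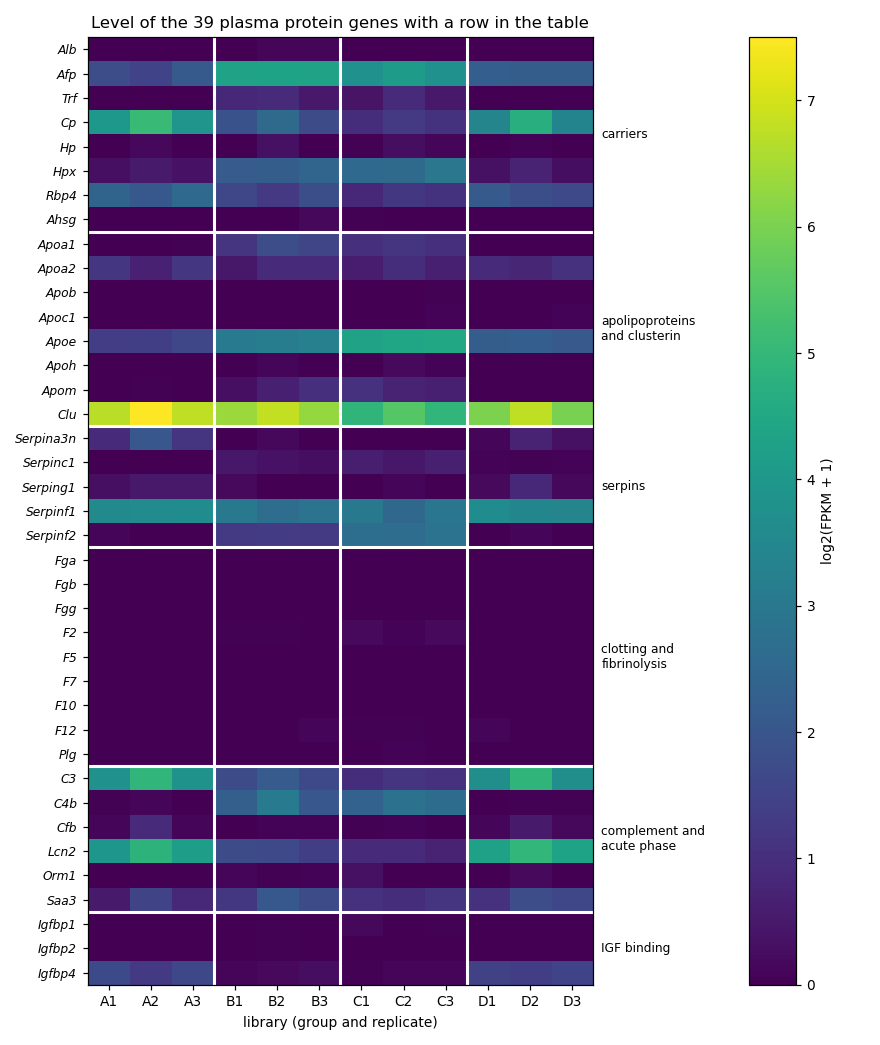
Rows are the 39 genes with a row in the table, ordered by role, columns are the 12 libraries, and color gives log2(FPKM + 1). The clotting rows are at the bottom of the scale in all libraries, Clu is the brightest row, and Afp, Apoe, Hpx, C4b and Serpinf2 brighten in groups B and C while Cp, C3 and Lcn2 darken.

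Differential expression was tested with limma on log2(FPKM + 1), with Benjamini-Hochberg adjustment over the 10615 genes whose mean over the 12 libraries was at least 1 FPKM, and genes were called where the adjusted p was under 0.05 and expression differed by more than 1 on the log2 scale. Of the set, 12 genes passed this filter. Hpx, C4b and Serpinf2 passed it only through groups B and C, where they are high, so their rise was bound to appear.

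Cu/ES raised some plasma protein mRNAs and lowered others (group B vs. A). Afp, C4b, Hpx, Apoe and Serpinf2 were higher, 5 of the 12 tested against 10.1% of all genes tested, although 3 of the 5 had to differ to pass the filter. Lcn2, C3 and Cp were lower, 3 of the 12 against 53.0% of all genes. The median log2 fold change of the 12 was 0.09, whereas the median over all genes was -1.10. Hpx, C4b and Serpinf2, which passed the filter only through groups B and C, lift this median. They also lift the numbers of higher genes given next. Groups A and B did not overlap in 5 genes that were higher (20.5% of all genes) and 5 that were lower (72.4%). The same 8 genes passed both thresholds without the libraries numbered 2. By the adjusted p alone, 6 of the 12 were higher and 5 lower, against 20.1% and 72.0% of all genes.

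The scale matters here, because the median of all genes moved. With median-ratio scaling, which sets that median close to 0 (-0.03), 2753 genes were higher and 2710 lower in group B, against 1070 and 5622 on the FPKM scale. Quantile normalization gave 2128 higher and 2663 lower. The 5 rises and 3 falls above were past both thresholds on the median-ratio scale too. The signs of Clu, Rbp4 and Serpinf1 depended on the scale: they were lower on the FPKM scale and higher by 0.77, 0.14 and 0.39 (log2) after median-ratio scaling, and relative to the median gene they lay 0.59, 0.30 and 0.34 above it.

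**Figure D3:**
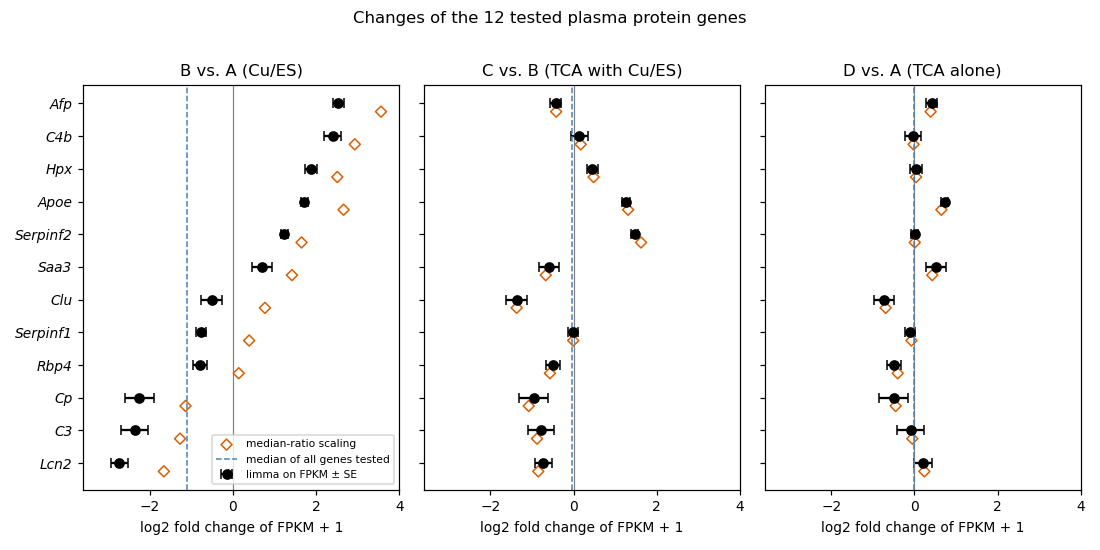
Filled points are log2 fold changes of FPKM + 1 with their SE from limma (horizontal axis) for the 12 tested genes (vertical axis), open diamonds are the values after median-ratio scaling, and the dashed line is the median of all genes tested, with 1 panel for each comparison of groups. The diamonds of Clu, Rbp4 and Serpinf1 lie on the other side of 0 in B vs. A, while those of Afp, Lcn2 and the remaining called genes stay on the same side.

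Among the carriers, alpha-fetoprotein mRNA (Afp) was the clearest rise. Its level was 2.45, 1.87 and 3.36 FPKM in group A, 19.1, 19.5 and 19.1 in B, 12.8, 16.6 and 13 in C, and 3.77, 3.66 and 3.63 in D. Every library of group B was above every library of the other groups, and those of group C came next. The mean was 7.51 times higher in group B than in A (log2 fold change 2.53 ± 0.13 SE, adjusted p = 1.16e-10, limma), and the exact permutation test gave p = 0.1, the smallest that 3 libraries against 3 allow. Its neighbour Alb stayed at 0.0758 FPKM or lower.

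Hemopexin, which binds free heme, is encoded by Hpx and was at 0.229, 0.469 and 0.276 FPKM in group A, 3.45, 3.59 and 4.48 in B, 4.87, 5.07 and 6.92 in C, and 0.255, 0.651 and 0.205 in D. Groups A and D overlapped, and B and C were above both and apart from each other. The rise in group B was 1.87 ± 0.14 on the log2 scale (adjusted p = 1.13e-08, limma).

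Cp encodes ceruloplasmin, the main copper protein of plasma. Its levels were 15.1, 32.6 and 14.1 FPKM in group A, 2.72, 5.04 and 2.36 in B, 0.97, 1.4 and 1.15 in C, and 9.57, 24.9 and 9.45 in D. All libraries of groups B and C were below those of A and D, and those of C were below those of B. The fall from A to B was -2.25 ± 0.35 (adjusted p = 2.69e-05, limma), and without the libraries numbered 2 it was -2.14 ± 0.09. With median-ratio scaling the fall was smaller, at -1.14 (log2), and on the FPKM scale Cp lay -1.15 (log2) from the median gene.

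The remaining carriers were low. Rbp4, the plasma carrier of retinol, had mean levels of 4.16 ± 0.885, 1.97 ± 0.568, 1.08 ± 0.26 and 2.67 ± 0.615 FPKM in groups A, B, C and D, and its change from A to B was -0.80 ± 0.17 (adjusted p = 4.08e-04, limma). The transferrin gene Trf had 1, 1 and 0 reads in the libraries of group A, 62, 67 and 30 in B, 22, 69 and 33 in C, and none in D. Below the filter of the main test, these reads were compared by limma-voom without a filter, where Trf had an adjusted p of 3.80e-07 in B vs. A. Haptoglobin (Hp), the carrier of free hemoglobin, did not exceed 0.256 FPKM.

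Among the apolipoprotein genes, Apoe rose in group B. It encodes the apolipoprotein of remnant lipoproteins and was at 1.58, 1.6 and 2.01 FPKM in group A, 7.47, 7.81 and 8.6 in B, 19.2, 20.6 and 21.7 in C, and 3.63, 3.75 and 3.23 in D. The groups were in the order A, D, B and C, and no pair of neighbours in this order overlapped. From A to B the mean rose 4.6-fold (log2 fold change 1.72 ± 0.09, adjusted p = 1.36e-10, limma).

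Clu was at 105, 180.1 and 109 FPKM in group A, 82.1, 111 and 77.9 in B, 29.3, 44.7 and 29.4 in C, and 63.8, 109.8 and 62.8 in D. Group C was below all others, while A, B and D overlapped through their libraries numbered 2. The change from A to B was -0.51 ± 0.25 (adjusted p = 0.0629, limma), and with a block for the replicate numbers its adjusted p was 2.27e-05. As said, its sign turned with median-ratio scaling.

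Apoa1, the main protein of high density lipoprotein, came up from nearly nothing: it had 0, 0 and 1 reads in group A, 37, 77 and 60 in B, 30, 43 and 33 in C, and none in D. All libraries of B and C were above 1 FPKM and those of A and D were at or below 0.0259. Its adjusted p in B vs. A was 1.78e-08 (limma-voom on reads, no filter). Apom, a carrier of sphingosine 1-phosphate on lipoproteins, had 0, 1 and 0 reads in A and 6, 14 and 25 in B (adjusted p = 1.46e-05, limma-voom). Apoa2 had means of 1.06 ± 0.392 FPKM in A and 0.713 ± 0.268 in B, and these groups overlapped.

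The serpins include inhibitors of clotting, complement and plasmin. Serpinf2, the gene of alpha 2-antiplasmin, was at 0.0715, 0.0117 and 0 FPKM in group A, 1.4, 1.48 and 1.42 in B, 5.53, 5.46 and 6.24 in C, and 0.0115, 0.0925 and 0 in D. Groups B and C were narrow and did not overlap, C was above B, and A and D were near 0. Its log2 fold change from A to B was 1.24 ± 0.08 (adjusted p = 1.11e-09, limma), which understates the change of a gene so low in group A, where it had 7 reads in all, against 297 in B.

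The adjacent gene Serpinf1 went the other way. Its levels were 11.1, 11.2 and 11.6 FPKM in group A, 7.12, 5.4 and 6.31 in B, 7.13, 4.83 and 6.67 in C, and 11.6, 9.98 and 9.58 in D. Groups B and C lay below A and D and overlapped with each other. The difference of B from A was -0.76 ± 0.12 (adjusted p = 3.73e-05, limma), short of the threshold on fold change and with the sign that depends on scaling.

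The remaining serpins were below the filter of the main test. Serpina3n, an acute phase serpin of a large gene family in which reads can be split between copies, had 78, 270 and 107 reads in group A, 0, 8 and 0 in B, none in C, and 6, 61 and 23 in D. Serpinc1, the antithrombin gene, had 0, 1 and 0 reads in A, 26, 20 and 14 in B, 33, 28 and 40 in C, and 4, 2 and 5 in D. In B vs. A their adjusted p-values were 4.33e-05 and 8.35e-07 (limma-voom on reads, no filter). Serping1, the C1 inhibitor gene, had means of 0.37 ± 0.111 FPKM in A and 0.0519 ± 0.075 in B.

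Complement and acute phase genes did not move as one. C3, the central complement component, was at 12.9, 29.9 and 13.3 FPKM in group A, 2.25, 3.49 and 2.13 in B, 0.983, 1.17 and 1.11 in C, and 12, 29.1 and 12 in D. Groups A and D overlapped, B was lower and C lower still, with no overlap between A, B and C. The fall from A to B was -2.36 ± 0.32 (adjusted p = 6.96e-06, limma).

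C4b, which feeds the same cascade upstream of C3, was at 0.0238, 0.0938 and 0.00933 FPKM in group A, 3.83, 7.3 and 3.12 in B, 4.08, 5.96 and 5.3 in C, and 0.00459, 0.0278 and 0.0231 in D. Groups B and C overlapped, and both were far above A and D. Its rise from A to B was 2.40 ± 0.20 (adjusted p = 2.24e-08, limma), with 27 reads in group A and 2472 in B. Mouse C4b has a near-identical copy, C4a, so the split of reads between them is uncertain.

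Lcn2 was at 14.4, 28.1 and 16.9 FPKM in group A, 2.29, 2.16 and 1.64 in B, 0.886, 0.873 and 0.69 in C, and 18.4, 30.2 and 19.5 in D. It had the deepest fall of the 12 tested genes, and every library of B and C was below every library of A and D. The mean was 9.75 times lower in B than in A (log2 fold change -2.73 ± 0.21, adjusted p = 1.18e-08, limma).

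Saa3, a serum amyloid A gene made outside the liver as well, was at 0.443, 1.89 and 0.77 FPKM in group A, 1.31, 3.18 and 2.26 in B, 1.1, 0.971 and 1.22 in C, and 1.09, 2.43 and 2.05 in D. Its groups overlapped except C with B. The change from A to B was 0.70 ± 0.25 (adjusted p = 0.0178, limma), with 22, 54 and 37 reads in group B. Cfb, the factor B of the alternative pathway, had 10, 92 and 7 reads in group A and 0, 4 and 4 in B. Orm1 did not exceed 0.265 FPKM.

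Of the 3 growth factor binding proteins of the set, only Igfbp4 was measured above 1 FPKM. It had 277, 177 and 261 reads in group A, 7, 14 and 21 in B, 2, 10 and 10 in C, and 231, 211 and 238 in D. Groups A and D were both far above B and C, and its adjusted p in B vs. A was 2.66e-06 (limma-voom on reads, no filter). Without a filter, limma-voom called 12 of 35 genes of the set higher and 8 lower in B than in A, against 18.4% and 38.5% of the 22212 genes tested. Among the 12, the calls of Alb, Apob and F2 rest on 9, 14 and 5 reads in group B and 0 in A.

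**Figure D4:**
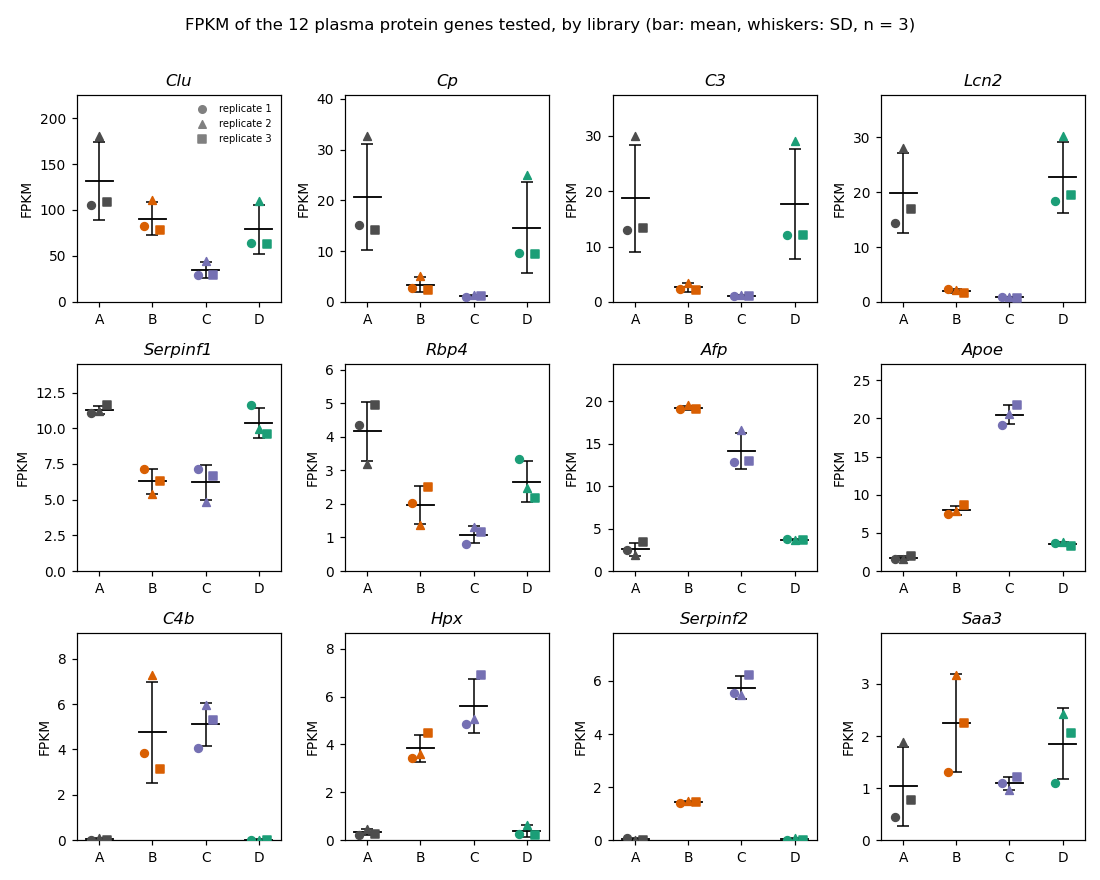
FPKM (vertical axes, linear, from 0) of the 12 tested genes by group, with a marker for each library, a bar for the mean and whiskers for the SD (n = 3). Afp, Apoe, C4b, Hpx and Serpinf2 are higher in groups B and C, Cp, C3 and Lcn2 are lower, and the triangles of replicate 2 stand above the rest for Clu, Cp and C3 in groups A and D.

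Adding TCA to Cu/ES changed 3 of these genes past both thresholds (group C vs. B). Serpinf2 and Apoe were higher in C, 2 of the 12 tested against 1.13% of all genes, and Clu was lower, 1 of the 12 against 1.16%. Serpinf2 owed its place in the test largely to group C (mean 5.75 FPKM, against 1.43 in B), so the filter favored its rise. Serpinf2 rose 4.01-fold (log2 fold change 1.47 ± 0.08, adjusted p = 1.42e-07, limma) and Apoe 2.57-fold (1.26 ± 0.09, adjusted p = 6.65e-07, limma). Clu fell to 34.5 ± 8.85 FPKM from 90.3 ± 17.9 (-1.37 ± 0.25, adjusted p = 5.27e-04, limma). The same 3 genes passed without the libraries numbered 2.

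By the adjusted p alone, 3 of the 12 genes were higher in C (20.4% of all genes) and 5 lower (23.6%). The change from B to C was -0.96 ± 0.35 for Cp (adjusted p = 0.0397), -0.73 ± 0.21 for Lcn2 (0.012) and -0.50 ± 0.17 for Rbp4 (0.0268), each past the adjusted p of limma. These calls were not firm: that of Cp was lost without a filter (adjusted p = 0.122, limma), with quantile normalization (0.0713), in limma-voom (0.0997) and without B1 (0.0568), B2 (0.16), C1 (0.1) or C3 (0.0874), that of Rbp4 without a filter (0.0826), in limma-voom (0.103) and without B1 (0.0708), B3 (0.121), C1 (0.106) or C3 (0.0508), and that of Lcn2 in limma-voom (0.217). C3 changed by -0.78 ± 0.32 (adjusted p = 0.0661, limma), although groups B and C did not overlap, and without the libraries numbered 2 its change was -0.64 ± 0.08 (adjusted p = 1.19e-04, limma). Afp, which Cu/ES raised, changed by -0.43 ± 0.13 (adjusted p = 0.0166, limma), and Hpx by 0.45 ± 0.14 (0.0223). Both calls were lost under some alternatives, among them leaving out the third library of group C (adjusted p = 0.0641 for Afp and 0.114 for Hpx, limma). C4b and Serpinf1 overlapped between the groups, with 95% intervals of the change from -0.28 to 0.57 and from -0.29 to 0.24. Groups did not overlap in 3 of the 12 genes that were higher in C (22.0% of all genes) and 7 that were lower (27.2%), and the median log2 fold change of the 12 was -0.46 against -0.03 over all genes.

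TCA without Cu/ES was compared with the untreated cells (group D vs. A). None of the 12 genes passed both thresholds of limma, against 0.0659% of all genes higher and 0.151% lower. Unadjusted p of limma was below 0.05 in 4 of the 12, beside 3802 of all 10615 genes tested. With the same filter, limma-voom on reads called 1 of the 12, Apoe, which was higher. Of all 10615 genes it called 36 higher and 68 lower. Past the adjusted p alone were 2 genes in the higher direction (10.5% of all genes) and 1 in the lower (11.5%): Apoe (0.73 ± 0.09, adjusted p = 1.92e-04), Afp (0.42 ± 0.13, 0.0353) and Clu (-0.73 ± 0.25, 0.047). Apoe and Afp did not overlap between A and D (20.7% of all genes were so in this direction), and Clu did overlap. Without the libraries numbered 2 the adjusted p of limma was 0.072 for Afp, 0.00211 for Apoe and 4.83e-05 for Clu. Saa3, Cp and Rbp4 also passed it there, at 0.0325, 0.00186 and 0.0174. The call of Clu was lost under several alternatives, among them no filter (adjusted p = 0.144, limma) and median-ratio scaling (0.0789). Leaving out A1 (0.0513), A2 (0.179), A3 (0.0594), D1 (0.164) or D3 (0.166) lost it too. That of Afp was lost without a filter (0.0885), with median-ratio scaling (0.0666), in limma-voom (0.0572), and leaving out A1, A2, D1, D2 or D3. The intervals of the log2 change were from -0.24 to 0.66 for Lcn2, from -0.79 to 0.60 for C3 and from -1.26 to 0.25 for Cp. Below the filter, unfiltered limma-voom called Serpina3n lower (-2.68, adjusted p = 0.0355). It called Serpinc1 higher (2.43, adjusted p = 0.0292), on 11 reads in D and 1 in A, beside Apoe. That made 2 of 35 genes of the set higher and 1 lower, against 123 and 287 of all 22212.

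Whether TCA acted differently with Cu/ES than without it was tested as an interaction, the change from B to C minus the change from A to D. Serpinf2 was past both thresholds at 1.46 ± 0.11 (adjusted p = 5.01e-06, limma) and Saa3 at -1.11 ± 0.36 (0.026), 1 of the 12 in each direction against 1.75% and 1.73% of all genes. The call of Saa3 rests on single libraries. It was lost leaving out A1 (adjusted p = 0.0688, limma), A3 (0.0574), B2 (0.0667), B3 (0.0517), D2 (0.0621) or D3 (0.0566). It was also lost without a filter (0.0892) and in limma-voom (0.0639). Without all 4 libraries numbered 2 both calls held (adjusted p = 2.76e-05 for Serpinf2 and 0.0154 for Saa3, limma). Past the adjusted p alone, 2 of the 12 were higher and 3 lower, against 17.7% and 19.8% of all genes. This adds Afp at -0.84 ± 0.18 (0.0031), Lcn2 at -0.94 ± 0.30 (0.024) and Apoe at 0.53 ± 0.13 (0.00554). The call of Lcn2 was lost without a filter (adjusted p = 0.0799, limma) and in limma-voom (0.179). It was also lost leaving out library A1 (0.0645), A3 (0.0582), B1 (0.0531), C3 (0.0532) or D2 (0.057). Without the libraries numbered 2, Clu (-0.67 ± 0.07, adjusted p = 1.17e-04, limma) and C3 (-0.52 ± 0.11, 0.0043) also passed the adjusted p, against 0.166 and 0.257 with all libraries. The value of Apoe depends on the scale, since with a pseudocount of 0.1 it was 0.36 (adjusted p = 0.105, limma) and in limma-voom its adjusted p was 0.205. Serpinf2 was near 0 in groups A and D, with 7 and 9 reads, so its change from A to D was near 0 on this scale and the interaction restates its change from B to C. In limma-voom on reads its adjusted p was 0.221, or 0.274 without a filter, and over all alternatives it ran from 4.80e-06 to 0.274.

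Markers of other cell types also moved with these comparisons. All 3 tested markers of stellate cells and fibroblasts, of 8 listed, were called lower in group B than in A, beside 53.0% of all genes. The summed level of the list was 140.1 to 206 FPKM in A, 3.44 to 5.78 in B, 1.27 to 2.45 in C and 121 to 183 in D. Acta2 and Col1a2, which also define these cells, were at or below 0.0181 and 0.02 FPKM in A. They were higher in B, at 0.206 to 0.551 and 0.0299 to 0.0665 FPKM. Pdgfrb and Rgs5 averaged 0.907 and 0.0223 FPKM in A, and 0.00875 and 0.00452 in B. Of the bile duct markers, Sox9 and Cftr rose, and Krt19 fell on the FPKM scale but was not called with median-ratio scaling. The list summed to 920.2 to 1004 FPKM in A, 1242 to 1406 in B, 739 to 953 in C and 743 to 790.4 in D, most of it Spp1. The endothelial list summed to 0.922 to 1.16 FPKM in A, 6.83 to 10.5 in B and 16.8 to 19.8 in C. Most of the sum in B and C was Pecam1, at 5.31 to 9.55 and 14 to 18.2 FPKM. Cdh5 changed by 0.15 from A to B (adjusted p = 0.349, limma) and by 0.41 from B to C (0.0348). Kdr, Tek and Stab2 did not exceed 0.648, 0.3 and 0.0319 FPKM in any library. Leukocyte markers did not sum above 0.63 FPKM in any library, and their defining gene Ptprc stayed at or below 0.0844. The part of these cells or genes in the changes of the plasma protein set was not tested.

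A wider list of 89 other plasma protein genes served as a comparison, of which 68 had a row and 15 were tested. In group B vs. A, 3 were higher and 6 lower, beside 10.1% and 53.0% of all genes tested, at a median of -0.62 (log2). With median-ratio scaling 5 were higher and 4 lower, beside 2753 and 2710 of all 10615 genes, at a median of 0.59. The largest rise was Gdf15, a stress-induced hormone that signals to the brainstem, from 22.8 ± 8.38 to 82.9 ± 8.37 FPKM (1.89, adjusted p = 3.94e-06, limma). The largest fall was C1s1, a protease of the first complement component, from 13.4 ± 5.57 to 0.649 ± 0.302 FPKM (-3.07, adjusted p = 1.89e-07, limma), and it too was highest in replicate 2 of all 4 groups. In C vs. B, none was higher and 1 was lower, beside 1.13% and 1.16% of all genes. It was Igfbp6, from 53 ± 1.7 to 19.4 ± 2.62 FPKM (-1.41, adjusted p = 1.96e-07, limma). None was called in D vs. A, where 0.0659% of all genes were higher and 0.151% lower.

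All genes of 2 lists of the early secretory route, entry into the endoplasmic reticulum and transport to the Golgi apparatus, were tested. Their counts in B vs. A stand beside 10.1% of all genes higher and 53.0% lower on the FPKM scale, and 2753 higher and 2710 lower of 10615 with median-ratio scaling. Of 23 genes of entry into the endoplasmic reticulum and signal peptide cleavage, 0 were higher and 6 lower in B than in A on the FPKM scale, with a median of -0.31 beside -1.10 for all genes, but with median-ratio scaling 10 were higher and 2 lower. Srp68, a subunit of the signal recognition particle, had the largest fall, from 108 ± 2.99 to 8.21 ± 0.229 FPKM (-3.56, adjusted p = 1.85e-14, limma). Of 21 genes of transport to the Golgi apparatus, 0 were higher and 11 lower on the FPKM scale, with a median of -1.13, and with median-ratio scaling 3 were higher and 1 lower. Lman1, a cargo receptor for clotting factors, fell from 105 ± 5.76 to 20.9 ± 0.602 FPKM (-2.27, adjusted p = 1.44e-12, limma). No gene of either list was called in C vs. B (1.13% of all genes higher, 1.16% lower) or in D vs. A (0.0659% and 0.151%).

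Regulators of hepatocyte and acute phase genes were also counted. Of 20 listed, 17 had a row and 12 were tested, of which 1 was higher and 6 lower in group B, beside the same 10.1% and 53.0% of all genes, or 1 and 2 with median-ratio scaling. Their median was -1.18 against -1.10 over all genes. Cebpb, a C/EBP factor induced in the acute phase and by stress, was at 56.6, 51.8 and 63.9 FPKM in group A, against 277, 273 and 300.4 in B (2.29, adjusted p = 6.98e-12, limma). Cebpd, its relative in the same response, fell from 10.5 ± 1.24 to 0.0791 ± 0.0442 FPKM (-3.41, adjusted p = 2.82e-12, limma). The pair moved in opposite directions without overlap between A and B, and kept them with median-ratio scaling (3.56 and -2.76). In C vs. B and in D vs. A, none of the 12 passed both thresholds. Of all genes, 1.13% were higher and 1.16% lower in C vs. B, and 0.0659% and 0.151% in D vs. A.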

How the data were processed

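RNA of 12 AML12 libraries was sequenced by the study, and the authors deposited FPKM values by gene symbol. The submitters' processing notes name fastp, HISAT2, HTSeq and GRCm39. Versions and the strand setting are not given in the sources used here, so reads of overlapping and antisense genes cannot be told apart. The study's DESeq2 test needs counts and was not used.

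The genes of the set and all other lists were chosen with earlier results of these data known. Values were compared as log2(FPKM + 1), a scale that understates changes of low genes, over 10615 genes that averaged 1 FPKM or more across the libraries (limma 3.58.1 in R 4.3.3, 1 fit with 4 groups, 8 residual degrees of freedom, variance trend, two-sided p-values adjusted by Benjamini-Hochberg). Calls needed an adjusted p below 0.05 and a log2 fold change beyond 1 in either direction. Named with every library were genes of the set called in any comparison or with a mean of at least 10 FPKM in a group. From each other list, the largest called rise and fall of B vs. A and of C vs. B were named.

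Numbers of whole reads, worked out from the steps between low values, fitted 22212 of 22212 genes above 0 in at least 2 libraries (tolerance 0.1 read). On them limma-voom was run as an alternative. The unfiltered limma-voom test and the fit without replicate 2 of every group were chosen after seeing the data. The fit was tested on simulated data.

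Replicate numbers come from the labels. Deviations from the group means correlated between same-numbered libraries of A and B at r = 0.17, 0.17 and 0.14. Between A and D they were 0.09, 0.58 and 0.30, where differently numbered libraries ran from -0.51 to 0.37. Between B and C they were 0.28, 0.24 and 0.01, and in the remaining pairs -0.17 to 0.18. Only A and B had every r above 0.1. The fit reported has no block for these numbers. The blocked fit was an alternative, whose value is given where it changed a call of B vs. A. Exact permutation tests were two-sided. Promoters came from RefSeq (GRCm38.p6), and 35 of the 47 genes matched by symbol. A further motif is not reported here. Tables and plots were made with Python 3.11.15 (scipy 1.17.1, numpy 2.4.6, matplotlib 3.10.9, pandas 2.3.3).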

Additional observations from a re-analysis of the deposited data

Results flagged for a closer look

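For 8 genes, the change with TCA in Cu/ES-treated cells minus that in cells without Cu/ES passed the adjusted p of limma's interaction term. The scale was log2 of FPKM + 1, with Benjamini-Hochberg adjustment. The 8 come from the set and from the genes named in the plasma protein, secretory and regulator lists. Those named genes were picked for the largest called changes of B vs. A or C vs. B, which share group B with the interaction. Of the 12 tested genes of the set, 2 passed in the higher direction and 3 in the lower. Of all genes tested, 17.7% passed in the higher direction and 19.8% in the lower. The value was 1.46 for Serpinf2 (adjusted p = 5.01e-06), which was near 0 in groups A and D, so that it restates the change from B to C, and limma-voom on reads gave an adjusted p of 0.221. For Apoe, higher with TCA in both settings, it was 0.53 (adjusted p = 0.00554), but 0.36 with a pseudocount of 0.1 (adjusted p = 0.105, limma), and its adjusted p was 0.205 in limma-voom. For Afp it was -0.84 (adjusted p = 0.0031): all libraries with TCA were above those without it in untreated cells and below them in Cu/ES-treated cells. Lcn2 gave -0.94 (adjusted p = 0.024) and Saa3 -1.11 (adjusted p = 0.026), and limma-voom gave them adjusted p-values of 0.179 and 0.0639. Outside the set, the values were -1.16 for Gdf15 (adjusted p = 0.0181), -1.55 for Igfbp6 (adjusted p = 5.01e-06) and 0.55 for Cebpd (adjusted p = 0.0223). Igfbp6 was named for its change from B to C (-1.41), which its value largely repeats, since its change from A to D was 0.14. Cebpd was at 0.0791 and 0.073 FPKM in groups B and C, so its value restates its change from A to D (-0.56) with the sign turned.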

How the results depend on the processing

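Counts of called genes depended on thresholds more than named directions did. In B vs. A, 5 genes of the set were higher and 3 lower. The higher count was 2 of 7 where a mean of 5 FPKM was asked for, beside 777 of all 6878 genes tested. It was 12 of 35 with unfiltered limma-voom, beside 4080 of 22212. The lower count was 5 of 35 without a filter, beside 5989 of all 22212 genes. It was 5 of 12 with TPM (6724 of 10615) and 8 of 35 with unfiltered limma-voom (8556 of 22212). In C vs. B, 2 were higher and 1 lower. The higher count was 1 of 7 with a mean of at least 5, beside 63 of all 6878 genes. Of 12, the lower count was 4 with a pseudocount of 0.1 (386 of all 10615 genes), 2 with TPM (145) and 2 with median-ratio scaling (155). It was 1 to 2 leaving out 1 library, beside 100 to 181 of all genes. In D vs. A, limma-voom called 1 of 12 higher, beside 36 of 10615 genes. Unfiltered, it called 2 of 35 higher (Apoe and Serpinc1) and 1 lower (Serpina3n), beside 123 and 287 of 22212. In the interaction, 1 was higher and 1 lower. The higher count was 0 of 7 with a mean of at least 5 (97 of all 6878 genes). It was also 0 in limma-voom, with the filter (435 of 10615) or without it (775 of 22212). The lower count was 0 without a filter (179 of 22212) and with a mean of at least 5 (172 of 6878). Of 12, it was 2 with a pseudocount of 0.1 (418 of 10615), TPM (200), median-ratio scaling (237) or quantile normalization (190). Leaving out 1 library gave 0 to 3, beside 167 to 249 of all genes. Of the 15 other plasma protein genes, median-ratio scaling gave 5 higher in B vs. A (2753 of all 10615). The lower count was 3 of 11 with a mean of at least 5 (3312 of 6878) and 3 of 15 with quantile normalization (2663 of 10615). In C vs. B, 1 of 55 was higher without a filter (131 of 22212). Of the 15, 4 were lower with a pseudocount of 0.1 (386 of 10615) and 3 with quantile normalization (114). The lower count was 2 with TPM (145), median-ratio scaling (155) or limma-voom (438), and 1 to 3 leaving out 1 library (100 to 181). In D vs. A, 1 of the 15 was higher with a pseudocount of 0.1 (35 of 10615), TPM (16) or limma-voom (36). Leaving out 1 library gave 0 to 1 lower (1 without D2, beside 19 of 10615). At least 5 FPKM in group A was reached by 5 genes of the set, and 11 reached 1 FPKM leaving out any library of A. The causes were not tested, except that stricter filters test fewer genes.

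Signs turned in B vs. A for Rbp4 (0.14 with median-ratio scaling, 0.53 with quantile normalization), Serpinf1 (0.39 and 0.45) and Clu (0.77 with median-ratio scaling), and in C vs. B for Serpinf1 (0.05 with TPM, 0.04 without replicate 2 of every group). Leaving out 1 library, ranges across 0 were -0.11 to 0.13 for Serpinf1 and -0.06 to 0.44 for C4b in C vs. B, and in D vs. A -0.10 to 0.12 for Hpx (-0.03 without replicate 2 of every group), -0.04 to 0.04 for Serpinf2, -0.50 to 0.28 for C3, -0.06 to 0.00 for C4b and 0.00 to 0.48 for Lcn2. With a block for the replicate numbers, the counts were 5 higher and 3 lower in B vs. A, and 2 and 1 in C vs. B, and no call past both thresholds was lost. C3 and Saa3 in C vs. B (adjusted p = 0.00634 and 0.0137, limma) and Clu in the interaction (6.37e-04) passed the adjusted p with it. So did Clu in B vs. A (2.27e-05), and Rbp4 and Saa3 in D vs. A (0.0478 and 0.0438). Low read numbers limit Saa3 and all genes below 1 FPKM.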
